A study of Mus musculus with 8 samples.

Results

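The superoxide dismutases, catalase and the peroxiredoxins were examined as a group of 10 genes (Sod1, Sod2, Sod3, Cat and Prdx1 to Prdx6) among the 51912 genes of the deposited table. The rows were taken by gene symbol, and the group was set up because Sod2 had been seen to be higher in the knockout libraries of this same comparison. The values of Sod2 are therefore given as a description without a test. The other genes were chosen by family, with results of the same comparison already known, so their counts are read as a description as well. All 10 genes passed the filter on low counts and were tested, and none passed only through the group in which it was high.

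The libraries came from mouse lung at embryonic day 16. The Control group held 4 libraries of the genotype Tbx4rtta; tetocre; Sin3a F/+, and the Sin3a CKO group held 4 libraries of Tbx4rtta; tetocre; Sin3a F/F. Both groups carried the rtTA transgene named for Tbx4, a gene of lung mesenchyme, together with the doxycycline-dependent Cre, and both came from pregnant mice fed doxycycline from embryonic day 12. The controls thus also held a floxed Sin3a allele and induced Cre. SIN3A is the scaffold of a histone deacetylase corepressor complex. The labels name the tissue as bulk lung and the cells as sorted mesenchymal cells. The marker used for the sort is not given. The labels number the libraries as biological replicates, and the design speaks of 4 lungs in each group. Whether these came from separate litters is not given, so p-values measure the spread between these samples.

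Superoxide dismutases turn superoxide into hydrogen peroxide and oxygen, each in its own place: SOD1, with copper and zinc, in the cytosol and the space between the mitochondrial membranes, SOD2, with manganese, in the mitochondrial matrix, and SOD3, secreted, on the extracellular matrix. Catalase in peroxisomes and the peroxiredoxins then remove peroxide. Peroxiredoxins do so with a reactive cysteine that thioredoxin, or glutathione for PRDX6, reduces again, and the developing lung meets a steep rise in oxygen at birth.

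Because 4 of the genes that were higher have a promoter in the reference table, and Cat and Prdx1 did not pass the test, the start regions of these 6 genes are shown side by side. The windows are RefSeq sequences of build GRCm38.p6, from 250 bases before to 50 bases after the start. They lie at chr17:13007589-13007888 on the plus strand for Sod2 and at chr16:90220512-90220811 on the plus strand for Sod1. The window of Prdx5 lies at chr19:6910057-6910356 on the minus strand, and that of Prdx3 at chr19:60874489-60874788 on the minus strand. Those of Cat and Prdx1 lie at chr2:103485104-103485403 on the minus strand and at chr4:116685349-116685648 on the plus strand. Capitals mark the matches of the searched motifs on either strand.
Sod2: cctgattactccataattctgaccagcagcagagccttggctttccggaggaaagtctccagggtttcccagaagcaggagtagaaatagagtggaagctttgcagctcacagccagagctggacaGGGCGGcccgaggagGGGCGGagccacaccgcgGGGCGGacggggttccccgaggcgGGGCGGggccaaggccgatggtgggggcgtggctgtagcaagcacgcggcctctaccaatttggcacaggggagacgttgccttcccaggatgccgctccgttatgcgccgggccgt
Sod1: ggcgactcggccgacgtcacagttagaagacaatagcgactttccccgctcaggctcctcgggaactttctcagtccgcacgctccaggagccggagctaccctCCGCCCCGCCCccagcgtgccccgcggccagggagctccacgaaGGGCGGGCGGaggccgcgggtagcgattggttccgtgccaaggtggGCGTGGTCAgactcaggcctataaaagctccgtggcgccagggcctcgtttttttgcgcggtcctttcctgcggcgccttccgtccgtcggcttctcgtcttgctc
Prdx5: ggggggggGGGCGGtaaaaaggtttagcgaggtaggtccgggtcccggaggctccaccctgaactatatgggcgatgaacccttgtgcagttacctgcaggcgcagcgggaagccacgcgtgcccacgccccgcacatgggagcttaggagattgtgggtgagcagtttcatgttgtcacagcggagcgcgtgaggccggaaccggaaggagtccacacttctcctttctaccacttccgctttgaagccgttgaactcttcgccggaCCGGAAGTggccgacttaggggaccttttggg
Prdx3: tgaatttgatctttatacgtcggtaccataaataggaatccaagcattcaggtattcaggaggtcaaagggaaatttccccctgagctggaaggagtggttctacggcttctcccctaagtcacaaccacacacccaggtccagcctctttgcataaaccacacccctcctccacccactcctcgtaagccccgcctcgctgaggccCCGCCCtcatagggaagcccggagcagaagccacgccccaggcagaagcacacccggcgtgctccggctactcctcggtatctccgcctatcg
Cat: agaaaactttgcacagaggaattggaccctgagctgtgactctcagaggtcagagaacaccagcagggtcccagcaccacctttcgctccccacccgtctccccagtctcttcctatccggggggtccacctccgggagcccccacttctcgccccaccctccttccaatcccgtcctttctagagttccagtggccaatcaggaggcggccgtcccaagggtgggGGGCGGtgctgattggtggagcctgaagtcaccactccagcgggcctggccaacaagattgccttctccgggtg
Prdx1: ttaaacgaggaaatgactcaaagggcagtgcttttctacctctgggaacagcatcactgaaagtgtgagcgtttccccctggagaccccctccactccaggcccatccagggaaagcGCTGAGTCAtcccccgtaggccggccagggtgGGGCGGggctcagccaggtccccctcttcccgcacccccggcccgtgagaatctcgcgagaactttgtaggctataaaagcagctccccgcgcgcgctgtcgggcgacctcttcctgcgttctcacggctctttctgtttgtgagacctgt

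The GC box, searched as GGGCGG on both strands, stood 4 times in the windows of Sod2 and of Sod1, where 5.49% of 32851 mouse promoters of the same length had at least as many. The matches in Sod1 overlap each other in pairs. Each of the windows of Cat, Prdx1, Prdx2, Prdx3 and Prdx5 held it 1 time and that of Prdx4 held 3, against 35.7% of promoters with any. The antioxidant response element core, TGACNNNGC, was found in Sod1 and Prdx1 and in 12.4% of promoters. An ETS motif, CCGGAAGT, was found in Prdx5 and in 3.89% of promoters, and the E-box CACGTG in Prdx4 and in 7.15%. The motifs searched for NRF1 (its palindromic core), FOXO (GTAAACA), CRE (TGACGTCA) and E2F (TTCCCGCC) had no match in these 8 windows. These are matches of letters in a short window, and nothing was measured on binding.

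Deposited expected counts summed to between 96098322 and 108493347 per library. Sin3a was at 53.7, 46.8, 46.2 and 58.6 CPM (counts per unit of library size, with TMM scaling of the sizes) in Control 1 to 4 and at 56.6, 61.0, 53.2 and 61.0 CPM in Sin3a CKO 1 to 4. The log2 change was 0.17 ± 0.09 (SE), and the adjusted p was 0.191 in edgeR's quasi-likelihood test. The labels do not say which exons are deleted, and a count over the whole gene cannot check the deletion. Markers of lung mesenchyme summed to 17522 to 24033 CPM in Control and to 12699 to 14336 CPM in Sin3a CKO libraries, and 6 of 12 fell while 1 rose. Collagen transcripts make up most of that sum (Col3a1 at 9031, Col1a2 at 3791 and Col1a1 at 3775 CPM on average in Control), and Tbx4 (log2 change -0.15), Vim (0.05) and Tcf21 (0.21) did not pass, while Meox2 rose (0.35). Erythroid markers summed to 109.8 to 892 CPM in Control and to 1099 to 4293 CPM in Sin3a CKO, with 7 of 14 tested higher and 1 lower. Beside these marker counts, 17.3% of all tested genes were called higher and 16.1% lower. Epithelial markers ranged from 166 to 549 CPM in Control and from 149 to 1413 CPM in Sin3a CKO, where none of 12 passed the test. Leukocyte markers ranged from 22.6 to 628 CPM and from 289 to 490 CPM, endothelial markers from 49.3 to 219 CPM and from 63.2 to 129 CPM, and mesothelial markers from 38.3 to 69.1 CPM and from 28.5 to 73.4 CPM. In these bulk libraries, fewer cells of a type and less RNA per cell cannot be told apart.

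Of the 10 enzyme genes, 5 were called higher in Sin3a CKO (Sod1, Sod2, Prdx3, Prdx5 and Prdx6), 1 was called lower (Sod3) and 4 did not pass (Cat, Prdx1, Prdx2 and Prdx4). The group was set up from the rise of Sod2, so its call is part of that choice. Of the 9 other genes 4 were higher, 1 was lower and 4 did not pass. A call is an adjusted p under 0.05 by edgeR's quasi-likelihood test with Benjamini-Hochberg adjustment over 20315 genes. Among all tested genes 33.4% were called, 17.3% higher and 16.1% lower. In a fit of the 9901 genes with a mean of at least 10 CPM, 30.4% were called higher and 27.1% lower. Of the enzyme genes only Sod3 lay below that mean. With the summed globin level as a covariate 3 of the enzyme genes were called higher, Sod1 and Prdx5 no longer passing, and with trends on transcript length and GC content removed 3 were, Prdx3 and Prdx6 no longer passing. The groups did not overlap for 7 of the 10 genes, 6 above and 1 below the controls, against 36.1% of all tested genes (18.5% above and 17.5% below). Without Sod2 they did not overlap for 6 of 9 genes, 5 above and 1 below. The median log2 change of the 10 genes was 0.36 with Sod2 and that of the other 9 was 0.22, beside 0.04 over all tested genes.

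**Figure D1:**
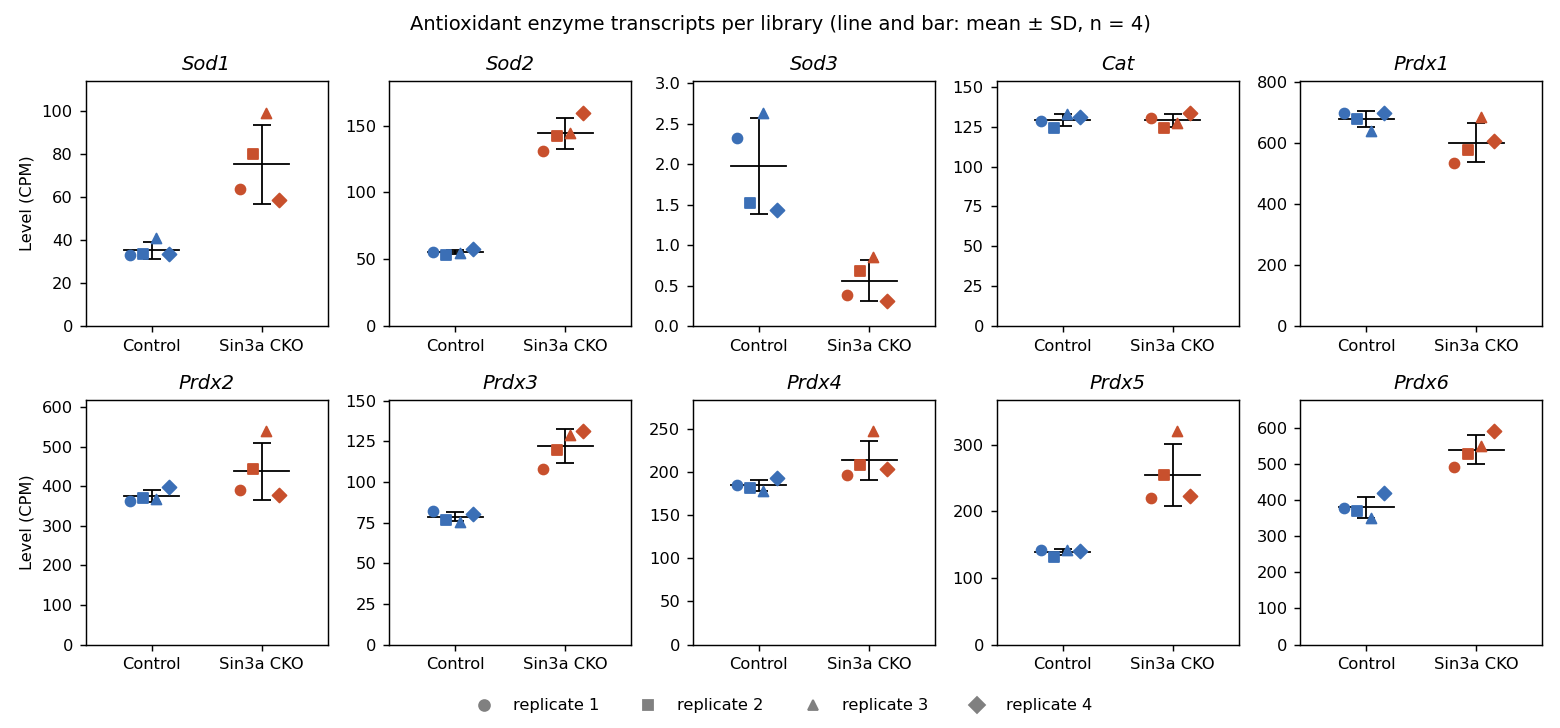
Levels of the 10 antioxidant enzyme genes in CPM (vertical axes, each from 0) in 4 Control and 4 Sin3a CKO libraries. Points are libraries, with shapes for replicate numbers, and lines and bars are mean ± SD. Sin3a CKO libraries lie above all controls for Sod1, Sod2, Prdx3, Prdx4, Prdx5 and Prdx6 and below them for Sod3.

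Sod2, the manganese enzyme of the mitochondrial matrix, was at 55.7, 53.4, 54.6 and 57.6 CPM in Control 1 to 4 and at 131, 142, 144 and 159 CPM in Sin3a CKO 1 to 4. All knockout libraries lay above all controls, with 131 CPM in the lowest of them and 57.6 CPM in the highest control. The mean went from 55.3 ± 1.79 to 144 ± 11.7 CPM (SD, n = 4 each), 2.61-fold, a log2 change of 1.38 ± 0.08 (SE). Of all tested genes 509, or 2.51%, had a log2 change at least as high. The gene spans chr17:13006846-13040063 on the plus strand of GRCm38. When libraries were left out singly its log2 change ranged from 1.301 to 1.43.

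Sod1, the copper and zinc enzyme of the cytosol, was at 33.03, 33.2, 40.8 and 33.3 CPM in Control 1 to 4 and at 63.6, 79.9, 99.0 and 58.3 CPM in Sin3a CKO 1 to 4. The groups did not overlap, and Control 3 and Sin3a CKO 3 were the highest of their groups. The means were 35.1 ± 3.80 and 75.2 ± 18.3 CPM (SD, n = 4 each), and the log2 change was 1.099 ± 0.16 (SE; adjusted p = 0.00072 in edgeR's test). The spread of the knockout libraries, 24.3% of their mean, was the widest among the genes that rose. Without Sin3a CKO 3 the log2 change of Sod1 was 0.89 ± 0.13 (adjusted p = 0.00116), and with the globin covariate it was 0.51 ± 0.25 and did not pass (adjusted p = 0.186). The gene lies at chr16:90220754-90226329 on the plus strand.

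Sod3, the secreted enzyme, was the only one of the 10 that fell. It had 243, 154, 284 and 142 expected counts in Control 1 to 4 and 41, 66, 80 and 30 in Sin3a CKO 1 to 4, or 2.32, 1.51, 2.63 and 1.44 CPM against 0.385, 0.677, 0.855 and 0.314 CPM. Every knockout library was below every control. The mean went from 1.98 ± 0.592 to 0.558 ± 0.253 CPM (SD, n = 4 each), and the log2 change was -1.82 ± 0.38 (SE; adjusted p = 0.00453 in edgeR's test). SOD3 is known as the main superoxide dismutase of the extracellular space in adult lung, and at this stage its transcript was the scarcest of the family. The gene lies at chr5:52363791-52371418 on the plus strand. Its change was -2.15 ± 0.39 without Sin3a CKO 3.

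Cat, the peroxisomal catalase, ranged from 123.9 to 132.8 CPM in the controls and from 124.4 to 133.6 CPM in the knockouts, so the groups overlapped almost throughout. The log2 change was -0.0012 ± 0.06 (SE; adjusted p = 0.992 in edgeR's test). Under the alternatives tried the log2 change of Cat lay between -0.11 and 0.08, and none called it. Its gene lies at chr2:103453849-103485160 on the minus strand.

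The mitochondrial peroxiredoxins both rose. Prdx3, which acts only in the matrix, was at 82.1, 76.9, 75.6 and 80.1 CPM in Control 1 to 4 and at 108, 119, 129 and 131 CPM in Sin3a CKO 1 to 4. The groups were apart, with means of 78.7 ± 2.95 and 122 ± 10.6 CPM (SD, n = 4 each) and a log2 change of 0.63 ± 0.08 (SE; adjusted p = 0.00027 in edgeR's test). Prdx5, found in mitochondria, peroxisomes and cytosol, was at 141, 132, 141.5 and 141 CPM in the controls and at 219.8, 254, 319.8 and 223 CPM in the knockouts. Its groups were apart as well, and Sin3a CKO 3 stood above the other knockout libraries. The means were 139 ± 4.598 and 254 ± 46.5 CPM (SD, n = 4 each), and the log2 change was 0.87 ± 0.12 (SE; adjusted p = 0.000434). Prdx3 did not pass with the length and GC trends removed (adjusted p = 0.109), nor Prdx5 with the globin covariate (adjusted p = 0.0838). Prdx3 lies at chr19:60864051-60874556 and Prdx5 at chr19:6906697-6910106, both on the minus strand.

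Prdx6, which uses glutathione and also has a phospholipase activity that takes part in surfactant lipid turnover, was at 379, 370.05, 352 and 421 CPM in Control 1 to 4. In Sin3a CKO 1 to 4 it was at 493, 529, 551 and 591 CPM, above every control. The means were 381 ± 29.3 and 541 ± 41.1 CPM (SD, n = 4 each), with a log2 change of 0.51 ± 0.08 (SE; adjusted p = 0.00142 in edgeR's test). With the length and GC trends removed it was at 0.50 ± 0.19 and did not pass (adjusted p = 0.088). Unlike Sod1 and Prdx5, whose knockout values were highest in Sin3a CKO 3, those of Prdx6, Prdx3 and Sod2 were highest in Sin3a CKO 4. Prdx6 lies at chr1:161240112-161251219 on the minus strand.

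The other peroxiredoxins did not pass. Prdx1, a major cytosolic peroxiredoxin, was at 699, 678, 641 and 697 CPM in Control 1 to 4 and at 535, 578, 685.5 and 606 CPM in Sin3a CKO 1 to 4. Only Sin3a CKO 3 reached into the range of the controls. The log2 change was -0.18 ± 0.09 (SE; adjusted p = 0.155 in edgeR's test). Without Sin3a CKO 3 it was -0.29 ± 0.06 and the adjusted p was 0.00839, with 17.4% of genes called lower and 15.3% higher. Without Control 4 as well it was -0.30 ± 0.06 (adjusted p = 0.00798), with 17.7% lower and 16.1% higher. DESeq2 called Prdx1 lower too (-0.21 ± 0.09, adjusted p = 0.0479), where 21.9% of all tested genes were called lower and 20.1% higher. So did upper-quartile scaling (-0.28 ± 0.08, adjusted p = 0.0197), with 22.3% of genes lower and 13.7% higher, and a filter on a mean of at least 10 CPM (-0.22 ± 0.08, adjusted p = 0.0303), with 27.1% lower and 30.4% higher. The call thus turned on this library and on the processing.

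Prdx2, a cytosolic peroxiredoxin that is abundant in red blood cells, was at 363, 371, 368 and 398 CPM in Control 1 to 4 and at 391, 443, 538 and 377 CPM in Sin3a CKO 1 to 4. The groups overlapped, and the log2 change was 0.22 ± 0.11 (SE; adjusted p = 0.162 in edgeR's test). Without Sin3a CKO 3 the log2 change of Prdx2 was 0.06. Prdx4, the peroxiredoxin of the endoplasmic reticulum, was at 186, 181, 179 and 193 CPM in the controls and at 197, 208, 247 and 204 CPM in the knockouts. Its groups were apart by a narrow gap and it did not pass, with a log2 change of 0.21 ± 0.08 (SE; adjusted p = 0.0773).

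Levels of different genes were set side by side only per length, as CPM per kilobase of the principal transcript. In the controls the order was Prdx1 (296 ± 11.7), Prdx2 (233 ± 9.67), Prdx4 (187 ± 6.37), then Prdx6, Prdx5, Sod1 (54.8 ± 5.93), Prdx3 (53.2 ± 2.00), Cat (49.4 ± 1.48), Sod2 (9.43 ± 0.305) and Sod3 (0.529 ± 0.158). Of the neighbours in that order, Sod1 and Prdx3 had overlapping values and the others did not. In the knockouts the values of Prdx2 (271 ± 45.3), Prdx1 (262 ± 27.7), Prdx6, Prdx4 (216 ± 23.0) and Prdx5 ran into each other, and those of Sod1 (117 ± 28.6), Prdx3 (82.5 ± 7.14), Cat, Sod2 (24.6 ± 2.00) and Sod3 were apart. The summed peroxiredoxin level went from 1038 ± 38.3 to 1260 ± 138 CPM per kilobase (SD, n = 4 each), and that of the dismutases from 64.7 ± 5.97 to 142 ± 28.4. With the longest annotated transcript in place of the principal one, the Sod1 level of the controls would be 8.84 CPM per kilobase.

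Within the peroxiredoxins the shares of Prdx1, Prdx3, Prdx4 and Prdx5 had groups that did not overlap, and those of Prdx2 and Prdx6 overlapped. The share of Prdx1 in the summed level per kilobase was 29.2%, 29.0%, 27.98% and 27.9% in Control 1 to 4 and 20.7%, 20.3%, 20.6% and 21.7% in Sin3a CKO 1 to 4, including Sin3a CKO 3, whose Prdx1 level in CPM overlapped the controls. Prdx5 made up 10.6 ± 0.465% in the controls and 15.9 ± 1.24% in the knockouts, and Prdx3 5.13 ± 0.140% and 6.58 ± 0.530% (SD, n = 4 each). Prdx4 made up 18.0 ± 0.0636% and 17.2 ± 0.321%. Prdx6 was at 15.4 ± 0.612% and 18.1 ± 1.84%, where Sin3a CKO 3 (15.9%) lay below Control 4 (16.2%), and Prdx2 at 22.4 ± 0.556% and 21.5 ± 1.61%. Shares sum to a fixed total, so a rise of some lowers the others.

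**Figure D2:**
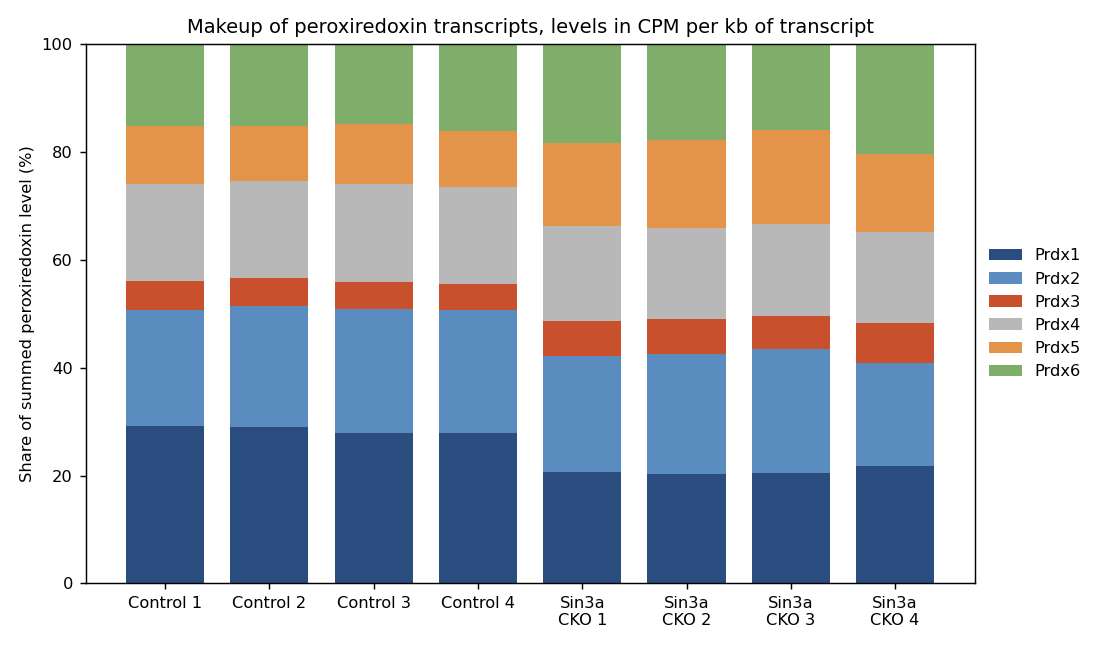
Share of each peroxiredoxin in the summed peroxiredoxin level (vertical axis, percent, from CPM per kilobase of transcript), one stacked bar for each of 4 Control and 4 Sin3a CKO libraries. The Prdx1 segment lies between 27.9% and 29.2% in Control and between 20.3% and 21.7% in Sin3a CKO.

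Sod2 was also set against Prdx3 and Cat, which remove peroxide, and against Sod1 in the same libraries. These quotients of CPM are read only for their change between groups, and they hold the values of Sod2 that led to the choice of the genes. Sod2 over Prdx3, a peroxiredoxin of the matrix, was 0.703 ± 0.0204 in Control and 1.18 ± 0.0458 in Sin3a CKO (SD, n = 4 each), with no overlap. No such quotient was taken with Prdx5, which is also found in mitochondria. Sod2 over Cat went from 0.429 ± 0.0125 to 1.12 ± 0.0811, also with no overlap. Sod2 over Sod1 was 1.59 ± 0.175 and 2.01 ± 0.542, and here the groups overlapped, since Sin3a CKO 3 was at 1.46 and Sin3a CKO 4 at 2.73.

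Erythroid RNA moved with the groups and with some of the enzymes. Summed globin transcripts were at 183, 205, 872 and 99.4 CPM in Control 1 to 4 and at 2629, 2353, 4250 and 1082 CPM in Sin3a CKO 1 to 4. Sin3a CKO 3, the highest, was also the highest of the knockout libraries for Sod1, Prdx1, Prdx2, Prdx4 and Prdx5. The same library had the highest epithelial marker sum (1413 CPM) and the largest shift towards short transcripts, given below. The part of each in these levels was not tested. With the log2 of summed globin as a covariate, Sod1 (0.51 ± 0.25, adjusted p = 0.186) and Prdx5 (0.63 ± 0.22, adjusted p = 0.0838) did not pass edgeR's test. Prdx3 (0.73 ± 0.15, adjusted p = 0.0116) and Prdx6 (0.74 ± 0.14, adjusted p = 0.00973) passed it, as did Sod3 (-3.05 ± 0.60, adjusted p = 0.0109), and the value of Sod2 was 1.51 ± 0.14. That covariate lies lower in every control than in every knockout, so globin and genotype share most of their variation, and 11.0% of all tested genes were then called higher and 6.98% lower.

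**Figure D3:**
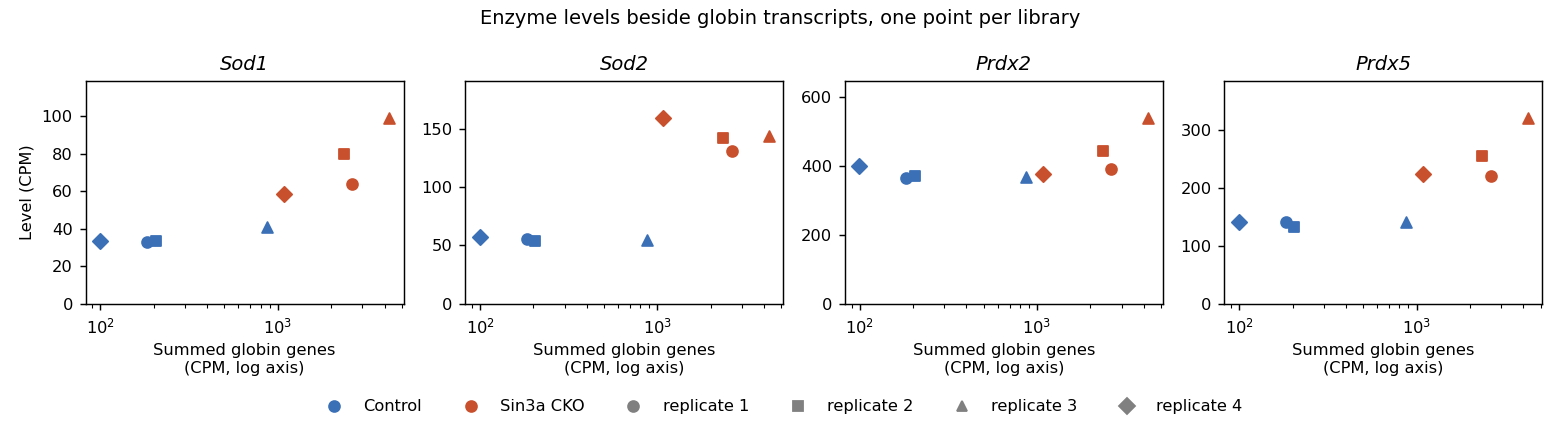
Level of Sod1, Sod2, Prdx2 and Prdx5 in CPM (vertical axes, from 0) against summed globin transcripts in CPM (horizontal log axes), one point per library, 4 Control and 4 Sin3a CKO. All controls lie to the left of all knockouts, at 99.4 to 872 CPM against 1082 to 4250 CPM, and Sin3a CKO 3, farthest to the right, is the highest knockout for Sod1, Prdx2 and Prdx5.

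Short genes moved with the groups as well. The fifth of tested genes with the shortest principal transcripts had a median log2 change of 0.32, and the fifth with the longest had -0.09. The trend fitted on length and GC content came to 0.28 for Sod1, whose principal transcript has 641 bases, and to -0.02 for Sod2, with 5861 bases. With these trends removed, Sod1 (0.80 ± 0.15, adjusted p = 0.00428), Prdx5 (0.90 ± 0.14, adjusted p = 0.00148) and Sod3 (-1.62 ± 0.37, adjusted p = 0.0103) passed edgeR's test, and Sod2 was at 1.41 ± 0.19. Prdx3 (0.46 ± 0.18, adjusted p = 0.109) and Prdx6 (0.50 ± 0.19, adjusted p = 0.088) no longer passed, and 9.47% of genes were called higher and 9.3% lower. The fitted trend came to 0.16 for Prdx3 and to -0.004 for Prdx6. The main fit had Prdx6 at 0.51 ± 0.08, so its estimate hardly moved while its SE grew. The part of short transcripts and of RNA quality in these values was not tested further.

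**Figure D4:**
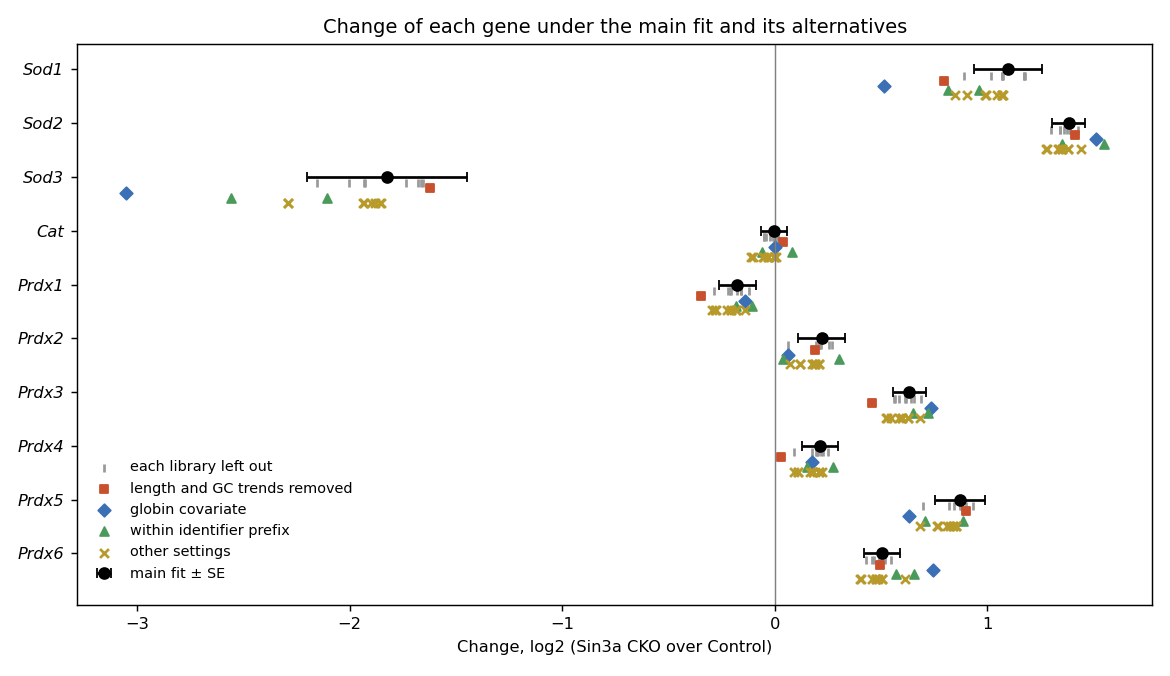
Log2 change, Sin3a CKO over Control (horizontal axis), of the 10 genes in the main fit (black, ± SE) and under each alternative (other marks). Sod2 stays between 1.28 and 1.55, Sod1 between 0.51 and 1.18, and Cat between -0.11 and 0.08.

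Identifier prefixes, whose meaning is not given, divide the libraries unevenly, and changes were also read within them. Control 1, Control 2 and Sin3a CKO 4 share s686, and Control 3 with Sin3a CKO 1 to 3 shares s1244, while Control 4 alone has s722. The log2 change of Sod2 was 1.55 within s686 and 1.35 within s1244, and that of Sod1 was 0.82 and 0.96. Prdx5 was at 0.71 and 0.88, Prdx3 at 0.72 and 0.65, Prdx6 at 0.66 and 0.57, and Sod3 at -2.56 and -2.11. The signs were those of the whole comparison, and each prefix had only 1 library in one of the groups, so no test was made within them. Cat was at 0.08 and -0.06.

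Reads of a few of these genes could be shared with other genes. Exons of Prdx2 overlap exons of Rnaseh2a by 177 bases and of Junb by 173 bases, both on the opposite strand, and Rnaseh2a, a subunit of ribonuclease H, rose by a log2 value of 0.89 ± 0.10 (adjusted p = 0.000156). Exons of Prdx5 overlap those of Trmt112, a methyltransferase partner, by 409 bases on the opposite strand, and Trmt112 was at 68.7 ± 1.79 and 74.7 ± 10.7 CPM (log2 change 0.12 ± 0.10, adjusted p = 0.401 in edgeR's test). Whether counting used strand is not given. Processed pseudogenes at least 95% identical over 80% of their length were found for Prdx1 (Gm7204 and Gm21399), Prdx2 (Tdpx-ps1) and Sod1 (Gm8566), and each was counted at no more than 0.288% of its parent gene's level. Beside Sod2, Wtap did not pass (-0.08 ± 0.07, adjusted p = 0.455) and Acat2 rose (0.56 ± 0.08, adjusted p = 0.000576). These neighbours are named for their place next to Sod2.

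Zfp593, Ing2, Nfkbib and Mrm1 were among the 5 genes whose profile was most like that of Sod2. Likeness was the root mean square difference of centred log2 CPM over the 8 libraries, among 10467 genes with a mean of at least 5 CPM, and it ran from 0.0672 for Zfp593 to 0.071 for Mrm1. Ing2 was at 26.7, 26.04, 27.5 and 29.7 CPM in Control 1 to 4 and at 64.7, 69.2, 75.8 and 71.1 CPM in Sin3a CKO 1 to 4. Mrm1, a methyltransferase of mitochondrial ribosomal RNA, was at 11.2, 10.2, 10.7 and 10.7 CPM in the controls and at 28.1, 30.5, 29.1 and 30.6 CPM in the knockouts. For both genes all knockout libraries lay above all controls. The genes were ranked on the same libraries that chose Sod2, so their rise is part of the choice.

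Around the 10 enzymes, 10 lists of related genes held 144 tested genes, of which 48 rose (33.3%), 22 fell (15.3%) and 74 did not pass, with a median log2 change of 0.16 beside 0.04 over all tested genes. Over all tested genes 17.3% rose and 16.1% fell, so the share of list genes that fell was near that of all tested genes. In a fit of the 9901 genes with a mean of at least 10 CPM, 30.4% rose and 27.1% fell. In that fit 50 list genes rose and 19 fell, and the number of list genes it held is not given here. The lists were thus not set against genes of like level. A share near that of all tested genes need not be near that of genes of like level. Of single lists, those of glutathione peroxidases (16.7% higher and 16.7% lower) and of peroxisomes (20% and 15%) were near the shares of all tested genes in both directions. The thioredoxin and NADPH lists each had 16.7% lower, near the share of all tested genes. The list of FOXO, PGC-1 and NF-kB had 10% higher and 15% lower. For Sod1 and its relatives the nearest list is that of metal chaperones and carriers, where 6 of 9 tested rose, none fell and the median was 0.63. Ccs, which loads copper into SOD1, went from 33.3 ± 0.238 to 68.6 ± 10.4 CPM (log2 change 1.04 ± 0.10, adjusted p = 9e-05 in edgeR's test). Atox1, a copper chaperone of the secretory pathway, went from 65.5 ± 3.82 to 158 ± 35.5 CPM (1.27 ± 0.14). Both were highest in Sin3a CKO 3, as Sod1 was. Mtch2, which also rose (0.80 ± 0.07), is known as a protein insertase of the mitochondrial outer membrane rather than a carrier of metals. Slc25a39 (0.63 ± 0.10), Slc25a37 (0.98 ± 0.15) and Slc31a1 (0.41 ± 0.09) rose too. With Mtch2 and the mitochondrial carriers in it, the list's count and median are not those of dismutase partners alone.

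The partners that reduce the peroxiredoxins did not all go one way. In the thioredoxin list 6 of 12 rose, 2 fell (all tested genes: 17.3% and 16.1%) and the median was 0.46. The thioredoxin gene Txn1 rose (log2 change 0.74 ± 0.095, adjusted p = 0.000341 in edgeR's test). The mitochondrial thioredoxin gene Txn2 (0.18 ± 0.11, adjusted p = 0.222) and Txnrd1 (0.15 ± 0.11, adjusted p = 0.354) did not pass. Txndc17, a disulfide reductase, rose from 73.7 ± 1.74 to 149 ± 18.3 CPM (log2 change 1.02 ± 0.09, adjusted p = 6.18e-05 in edgeR's test), with Txnrd3 at 0.87 ± 0.08 and Sesn2, a stress-induced regulator of mTORC1, at 0.99 ± 0.12. Srxn1, the sulfiredoxin that repairs over-oxidised peroxiredoxins, fell from 6.65 ± 0.978 to 2.499 ± 0.710 CPM (-1.41 ± 0.22, adjusted p = 0.00107). Txnrd2, the mitochondrial thioredoxin reductase, which keeps the thioredoxin that serves PRDX3 reduced, fell from 16.0 ± 1.98 to 8.38 ± 0.953 CPM (-0.93 ± 0.13, adjusted p = 0.000536). All knockout libraries were below all controls for both. With the globin covariate Srxn1 did not pass (-1.13 ± 0.41, adjusted p = 0.0851).

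In the glutathione synthesis and recycling list 6 of 12 rose, 3 fell and the median was 0.40. The 3 glutaredoxins named by the rule rose: Glrx by 0.96 ± 0.08, the mitochondrial Glrx5 by 0.82 ± 0.10 and Glrx2 by 0.62 ± 0.08. Gsr, which reduces glutathione, fell from 28.1 ± 3.84 to 16.5 ± 2.55 CPM (log2 change -0.77 ± 0.14, adjusted p = 0.00203 in edgeR's test), and Gclm, the modifier subunit of the first enzyme of glutathione synthesis, fell by 0.33 on the log2 scale. Gclc (0.74 ± 0.13, adjusted p = 0.00178) and Gss (0.53 ± 0.10, adjusted p = 0.00265) of the same list rose in that test. For both, all knockout libraries lay above all controls. Ggt5 was called lower with overlapping groups and lost its call when any of 6 libraries was left out (adjusted p 0.0803 to 0.104), all but Control 4 and Sin3a CKO 3. Among the glutathione peroxidases 1 of 6 rose, 1 fell and the median was 0.17. These shares (16.7% each) were near those of all tested genes (17.3% and 16.1%). Gpx4, which reduces lipid peroxides in membranes, was at 159 ± 3.08 and 221 ± 30.8 CPM (0.48 ± 0.10, adjusted p = 0.00375), and Gpx7, of the endoplasmic reticulum, at 67.3 ± 4.48 and 28.8 ± 7.63 CPM (-1.22 ± 0.17, adjusted p = 0.000546). Gpx4 and Gclm did not pass with the length and GC trends removed or with the globin covariate.

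In the NADPH list 6 of 12 rose, 2 fell (all tested genes: 17.3% and 16.1%) and the median was 0.23. Pgd, which makes NADPH in the pentose phosphate pathway, rose from 91.1 ± 1.91 to 130 ± 8.72 CPM (log2 change 0.51 ± 0.07, adjusted p = 0.000428 in edgeR's test). Taldo1 (0.72 ± 0.08) and Tkt (0.60 ± 0.07) also rose, and both belong to the branch of that pathway that makes no NADPH itself. The mitochondrial enzymes Aldh1l2 (-1.03 ± 0.14) and Me2 (-0.43 ± 0.08) fell. Me2 did not pass with the globin covariate or with the trends removed.

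NRF2 is the factor that drives many antioxidant genes, and KEAP1 holds it back. In that list 8 of 20 rose, 2 fell (all tested genes: 17.3% and 16.1%) and the median was 0.34. Nqo1, widely used as a readout of NRF2, fell from 17.99 ± 2.12 to 7.22 ± 1.40 CPM (log2 change -1.32 ± 0.15, adjusted p = 0.000204 in edgeR's test), below the controls in every knockout library. Gsto1, a glutathione transferase, rose by 1.47 ± 0.11 and Blvrb, a biliverdin and flavin reductase that is abundant in red blood cells, by 1.43 ± 0.10, while Mafg, a small MAF partner of NRF2, rose by 0.51 ± 0.09. Nfe2l2, the gene of NRF2, rose by 0.38 ± 0.08 (adjusted p = 0.00372 in edgeR's test). Fth1 (0.45), Gstm1 (0.33), Gsta4 (0.36) and Ephx1 (0.64) were called higher too. Hmox1, at 0.60 ± 0.21, did not pass (adjusted p = 0.0506). The activity of NRF2 was not tested. Keap1 was called lower (-0.24 ± 0.07, adjusted p = 0.0197) but was at 0.03 (adjusted p = 0.922) with the length and GC trends removed, and lost its call without Control 1 (adjusted p = 0.0688) or Control 2 (adjusted p = 0.0626).

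Among the oxidases that produce superoxide or peroxide, 2 of 17 tested rose, 5 fell and the median was -0.16. Beside this, 17.3% of all tested genes rose and 16.1% fell. Maoa, a monoamine oxidase of the mitochondrial outer membrane, rose from 66.5 ± 3.86 to 94.2 ± 7.85 CPM (log2 change 0.50 ± 0.08, adjusted p = 0.00109 in edgeR's test), and its relative Maob fell from 11.8 ± 0.720 to 4.97 ± 2.20 CPM (-1.25 ± 0.30, adjusted p = 0.00986). The oxidases of protein folding moved apart in the same manner, with Ero1lb at 0.82 ± 0.14 and Ero1l at -0.45 ± 0.10. Aox1 was called lower (-0.65 ± 0.18) and lost its call without Control 3 (adjusted p = 0.0522) or without Sin3a CKO 2 (adjusted p = 0.0548). Maoa did not pass with the trends removed, Maob not with the globin covariate, and Ero1l and Aox1 with neither.

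In the list of mitochondrial quality control, which shares its organelle with Sod2 and Prdx3, 7 of 16 rose, 1 fell and the median was 0.23. Beside this, 17.3% of all tested genes rose and 16.1% fell. Among genes with a mean of at least 10 CPM, 30.4% rose and 27.1% fell. Hspe1, the mitochondrial co-chaperonin, rose from 89.2 ± 2.68 to 169 ± 25.9 CPM (log2 change 0.92 ± 0.11, adjusted p = 0.000178 in edgeR's test). The fusion protein gene Mfn1 (0.63 ± 0.11) and the protease gene Afg3l2 (0.53 ± 0.10) rose too. Sirt5, a mitochondrial deacylase, fell by 0.87 on the log2 scale. Transcripts of the mitochondrial genome summed to 7253 to 8764 CPM in Control and 11768 to 12744 CPM in Sin3a CKO, with 15 of 19 tested higher and none lower.

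In the peroxisome list, whose organelle holds catalase, 4 of 20 rose, 3 fell and the median was 0.02. Pex16, which inserts membrane proteins, rose from 10.7 ± 1.14 to 21.5 ± 1.66 CPM (log2 change 1.01 ± 0.11, adjusted p = 0.000143 in edgeR's test). Pex7, an import receptor for matrix enzymes, fell from 16.0 ± 0.616 to 8.18 ± 1.91 CPM (-0.97 ± 0.16, adjusted p = 0.00147). Pex19 rose by 0.33 ± 0.08 and Pex11g was at -1.07 ± 0.27. Pex3 was called lower (-0.25 ± 0.07) and lost its call when Control 2 or 3 or either of the first pair of knockout libraries (Sin3a CKO 1, Sin3a CKO 2) was left out (adjusted p 0.052 to 0.0722). Pex19 and Pex3 did not pass with the trends removed, nor did Pex11g and Pex3 with the globin covariate.

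FOXO factors, PGC-1 coactivators and NF-kB are known regulators of Sod2 in mouse and human cells. In their list, with targets, 2 of 20 rose, 3 fell and 15 did not pass, with a median of -0.08. Esrra, a nuclear receptor partner of PGC-1 whose gene lies 871 bases from Prdx5, rose from 13.4 ± 0.855 to 26.4 ± 2.77 CPM (log2 change 0.98 ± 0.10, adjusted p = 0.000112 in edgeR's test), and Foxo3 rose by 0.43 ± 0.07. Rela, an NF-kB subunit, fell from 90.8 ± 3.47 to 70.1 ± 4.98 CPM (-0.37 ± 0.07, adjusted p = 0.0031), and its target Birc3 fell from 7.73 ± 0.759 to 2.85 ± 0.601 CPM (-1.44 ± 0.18, adjusted p = 0.000341). Bcl3 was called lower (-0.86 ± 0.28) and lost its call when any library but Sin3a CKO 3 was left out (adjusted p 0.0685 to 0.102). With the trends removed Rela was at -0.09 (adjusted p = 0.729), and Foxo3 and Rela did not pass with the globin covariate.

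**Figure D5:**
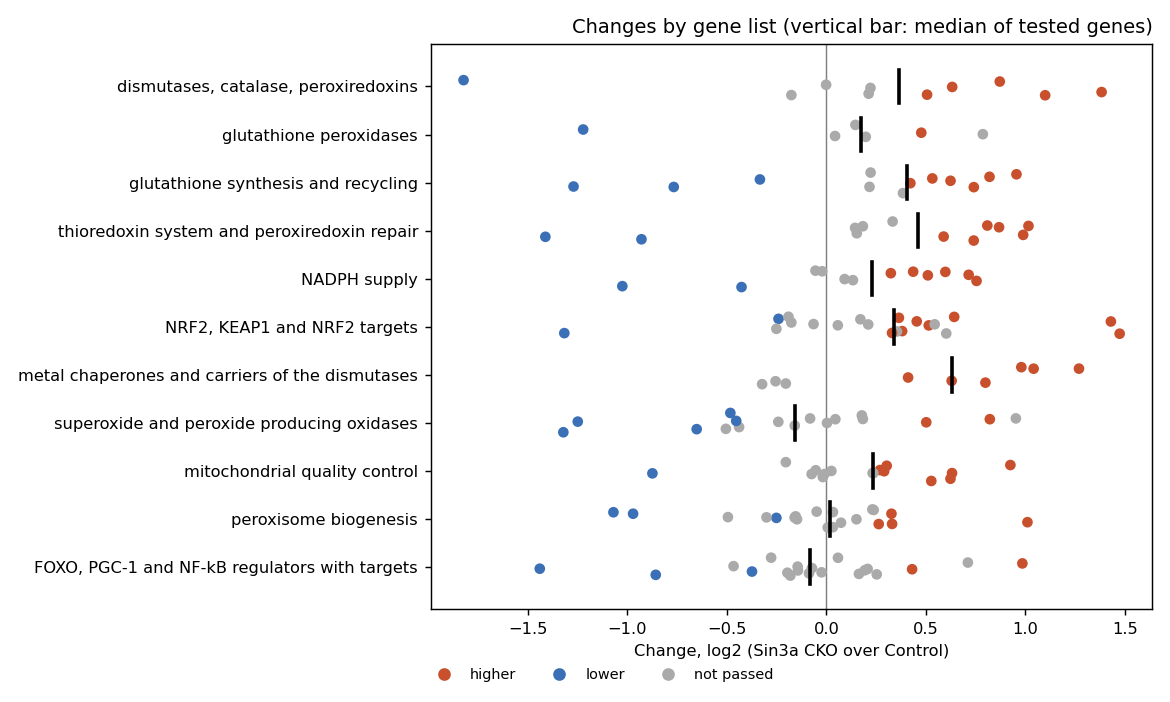
Log2 change, Sin3a CKO over Control (horizontal axis), of every tested gene in the 10 enzyme genes and the 10 lists around them (rows). Points are genes, coloured by whether they were called higher, lower or did not pass. Vertical bars are list medians, from -0.16 for the oxidases to 0.63 for the list of metal chaperones and carriers.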

How the data were processed

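Gene-level RNA-seq was available for 8 libraries, 4 Control and 4 Sin3a CKO, grouped by the labels. The deposited values are expected counts from RSEM, which are estimated and not normalized, in 1 table. The submitters' processing notes name STAR 2.5.3a, RSEM 1.3.0, edgeR and the build mm10, and the labels' protocols name Takara SMARTer v4 cDNA with Nextera XT libraries. Neither annotation nor strand setting is stated in what was available. The kit is known to copy whole polyadenylated transcripts, so that transcript length and RNA quality bear on the counts.

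Values were rounded to whole numbers and fitted with edgeR 4.0.16 in R 4.3.3 (TMM, filterByExpr with a minimum count of 10, robust quasi-likelihood test, two-sided, Benjamini-Hochberg over 20315 tested genes, threshold 0.05). The design had group only. CPM used TMM-scaled library sizes, and SEs were derived from the F statistic. Lengths, GC content and gene positions came from GENCODE M21, in which 99.7% of tested genes had a length, and per-kilobase levels used the APPRIS principal transcript, a choice made after the gene models were seen. Copies were found with BLAST 2.17.0. The fit was tested on simulated data with 100 genes changed 1.5-fold and 100 changed 2-fold. The fit called 23.9% and 50.5% of those that were tested, and 4.11% of its calls were false. A gene that did not pass may therefore still differ. No 2 libraries agreed within sampling noise.

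Genes named are the 10 enzymes, up to 3 called genes a direction with the smallest p in each list, the 5 genes most like Sod2, overlapping genes and copies. Neighbouring genes, Sin3a and mitochondrial transcripts are additions to this rule, and some genes that the rule picks are not reported here. The members and lists were chosen with earlier results of these data known. Ero1a and Ero1b of the oxidase list are newer names of Ero1l and Ero1lb, under which the table holds them. Alternatives were DESeq2 1.42.0, voom of limma 3.58.1, upper-quartile or RLE scaling, a filter of 10 CPM on the mean or none at all, replicate and identifier-prefix blocks, a globin covariate, length and GC trends removed with mgcv 1.9.3, each library left out, and, chosen after seeing the data, Control 4 and Sin3a CKO 3 left out together.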

Additional observations from a re-analysis of the deposited data

Results flagged for a closer look

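Of 132 groups of 4 libraries examined, over the named genes and the marker lists, 13 held a library far from the other 3 by Dixon's test. Chance gives such a library in about 1 in 20 groups. Among the enzymes these were Sod1 in Control 3, at 40.8 CPM against 33.03 to 33.3 CPM in the other controls, and Prdx5 in Control 2, the lowest control at 132 CPM. Control 3 was also the highest control for the summed erythroid markers (892 CPM), the epithelial markers (549 CPM) and the mesothelial markers (69.1 CPM), and their part in its Sod1 level was not tested. In the knockout group Gclm was low in Sin3a CKO 2 (52.9 CPM). Maoa (106 CPM) and Afg3l2 (159 CPM) were both high in Sin3a CKO 4. The summed mesenchyme markers were highest in Sin3a CKO 1 (14336 CPM). Among the controls Foxo3 was low in Control 1 (17.8 CPM), while Rela (96.01 CPM), Bcl3 (1.87 CPM) and Zfp593 (20.5 CPM) were high in Control 4.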

How the results depend on the processing

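Sod2 was higher than in the controls under every alternative listed in the processing notes, with a log2 change from 1.301 to 1.43 when libraries were left out singly and 1.55 within prefix s686. The counts of enzyme genes below include Sod2. With single libraries left out, 5 enzyme genes were higher each time and 1 to 2 lower, 42 to 51 list genes were higher and 16 to 24 lower, and 2653 to 3260 of all genes were higher and 2548 to 3723 lower. The main fit had 48 list genes higher and 22 lower. The enzyme genes called lower were 2 with upper-quartile scaling, with DESeq2 and without Control 4 and Sin3a CKO 3 together. Upper-quartile scaling moved the median of all genes by -0.11, and 38.2% of calls were then higher, against 51.8% in the main fit, with 5 enzyme genes higher there too. Without a filter 2233 genes were higher (36.9% of calls). The globin covariate left 3 enzyme genes higher, 38 list genes higher and 11 lower and 2225 genes higher and 1417 lower (61.1% higher). Removing the length and GC trends left 3 enzyme genes higher, 32 list genes higher and 12 lower and 1917 genes higher and 1883 lower, and Keap1 reversed, at 0.029. The cause of these losses was not tested. Of 51 other called genes that the naming rule picks, 14 lost the call with the globin covariate, 12 with the trends removed, beside Keap1, and 0 to 4 when libraries were left out singly. Deviations of libraries with the same replicate number correlated at -0.31, 0.34, -0.14 and 0.28, so the numbers were not taken as pairs, and with the replicate block 5 enzyme genes were higher and 1 lower, with 3560 and 3222 of all genes. Among the enzymes depth limits Sod3 most, which had 30 counts in its lowest library, and scarcer list genes are limited further.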
